A study of Mus musculus with 12 samples.

Results

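Intercalated cells are the acid-base cells of the kidney's connecting segment and collecting duct. The type A cell pumps protons into the urine with an apical vacuolar proton pump (V-ATPase) and returns bicarbonate to the blood through the basolateral anion exchanger AE1, encoded by *Slc4a1*. The type B cell works in the opposite sense and secretes bicarbonate through the apical exchanger pendrin (*Slc26a4*), with AE4 (*Slc4a9*) on its basolateral side. The forkhead factor *Foxi1* is needed for both types to form, and the Rh glycoproteins *Rhbg* and *Rhcg* carry ammonia across the collecting duct. The account below follows 10 such genes, chosen by name from the 54532 genes of a raw count table: *Slc4a1*, *Slc26a4*, *Slc4a9*, *Rhbg*, *Rhcg*, the V-ATPase subunits *Atp6v1b1*, *Atp6v0a4*, *Atp6v0d2* and *Atp6v1g3*, and *Foxi1*. Each had 1 row in the table, and all 10 were among the 24642 genes with enough reads to be tested.

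RNA was sequenced from whole kidneys of 12 C57BL/6 mice (C57BL/6 J background by the study's methods) at 18 days of age, in 4 groups of 3 mice, to ask what loss of the miR-17 binding motif in the *Pkd2* 3′-UTR does in a mouse model of polycystic kidney disease. All 12 mice carried 1 *Pkd1* allele with the RC missense mutation and 1 floxed *Pkd1* allele (*Pkd1* RC/F). Mice 19 to 21 were noncystic with *Pkd2* +/+, mice 22 to 24 were noncystic with the motif deleted from both *Pkd2* alleles (*Pkd2* Δ17/Δ17), mice 25 to 27 were cystic with *Pkd2* +/+, and mice 28 to 30 were cystic with *Pkd2* Δ17/Δ17. The cystic mice also carried Cre driven by the Ksp-cadherin promoter, which is active in tubule epithelium, so that the floxed allele was lost there (*Pkd1* RC/-) and not in other cells of the kidney. Cre was present in the cystic groups only, so an effect of Cre itself and of *Pkd1* loss cannot be told apart.

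Total counts were 18800307 to 24453033 per mouse, of which the 10 genes held 21250 to 41731. *Pkd2* itself was at 194 to 233 counts per 1000000 reads (CPM) in the 6 mice with *Pkd2* +/+ and at 270 to 337 CPM in the 6 with *Pkd2* Δ17/Δ17, without overlap. CPM values here were scaled with trimmed-mean (TMM) factors, and scaling to plain library totals instead moved the median gene by 0.16 (log2) towards the cystic kidneys with *Pkd2* +/+ and by 0.15 with *Pkd2* Δ17/Δ17. That scaling turned 4170 higher and 3495 lower calls over all genes into 6251 and 2468 with *Pkd2* +/+, and 3164 and 2515 into 5334 and 1657 with *Pkd2* Δ17/Δ17. Fold changes are relative to the TMM scale. In bulk kidney RNA, fewer cells of a type and less RNA per cell cannot be told apart.

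One cystic kidney stood apart for these genes. Among the 3 cystic *Pkd2* +/+ mice, mouse 25 had the highest CPM for 10 of 10 genes and mouse 26 the lowest for 10 of 10, and the summed level of the 10 genes was 1616, 1040 and 1237 CPM in mice 25, 26 and 27. The same order of the 3 mice held for 20.2% of all genes tested. The 10 listed marker genes of the principal cell, the salt- and water-reabsorbing neighbour of the intercalated cell, summed to 4208, 2606 and 2526 CPM in these mice, and 8 of the 10 were highest in mouse 25. Among the 3 cystic *Pkd2* Δ17/Δ17 mice, mouse 29 was highest for 9 of the 10 intercalated cell genes and for 8 of the 10 principal cell markers. The intercalated cell genes summed to 1091, 1353 and 1106 CPM in mice 28, 29 and 30. Mouse 25 was also the most deeply sequenced. Its part in the results was not tested beyond leaving it out, and values without mouse 25 are given beside the results that it moved most. Mouse 25 was singled out by its values for these same genes. Leaving it out therefore lowers their means in the cystic *Pkd2* +/+ group, and leaving out mouse 26 raises them.

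The 6 genes with an entry in RefSeq's promoter table (GRCm38.p6) were *Slc26a4*, *Foxi1*, *Atp6v1b1*, *Atp6v1g3*, *Atp6v0a4* and *Rhcg*. Their windows around the annotated start were searched on both strands for TGTTTAC and TATTTAC, core letters that forkhead factors are known to bind and that share TTTAC. One match was found, and it is shown because *Foxi1* is the forkhead factor of these cells. It lay in *Atp6v1b1*, 98 bases before the start that RefSeq annotates. The coordinates given for this gene below are GENCODE's and begin at a different base. The stretch shown is chr6:83742908-83742936 on the forward strand, with the motif in capitals.

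*Atp6v1b1* promoter: accagcttcccTGTTTACagtcaacctgg

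TGTTTAC was present in 3.65% and either motif in 6.54% of all 32851 windows, so 1 match among 6 windows is a description only.

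Between cystic and noncystic kidneys with *Pkd2* +/+, 5 of the 10 genes fell and *Foxi1* and *Rhcg* rose. *Slc4a1* fell 5.33-fold, *Rhbg* 2.84-fold, *Slc26a4* 2.56-fold, and the V-ATPase subunits *Atp6v0a4* and *Atp6v1g3* 1.79- and 1.75-fold, while *Rhcg* rose 1.59-fold and *Foxi1* 1.47-fold. In all, 7 of 10 passed the test (edgeR's quasi-likelihood test, Benjamini-Hochberg adjusted p under 0.05), 5 lower and 2 higher. Over all genes tested, 31.1% passed, 14.2% lower and 16.9% higher. The median log2 fold change was -0.64 for the 10 genes and 0.02 for all genes. The 7 genes that passed did not overlap between the groups, which held for 41.7% of all genes.

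**Figure D1:**
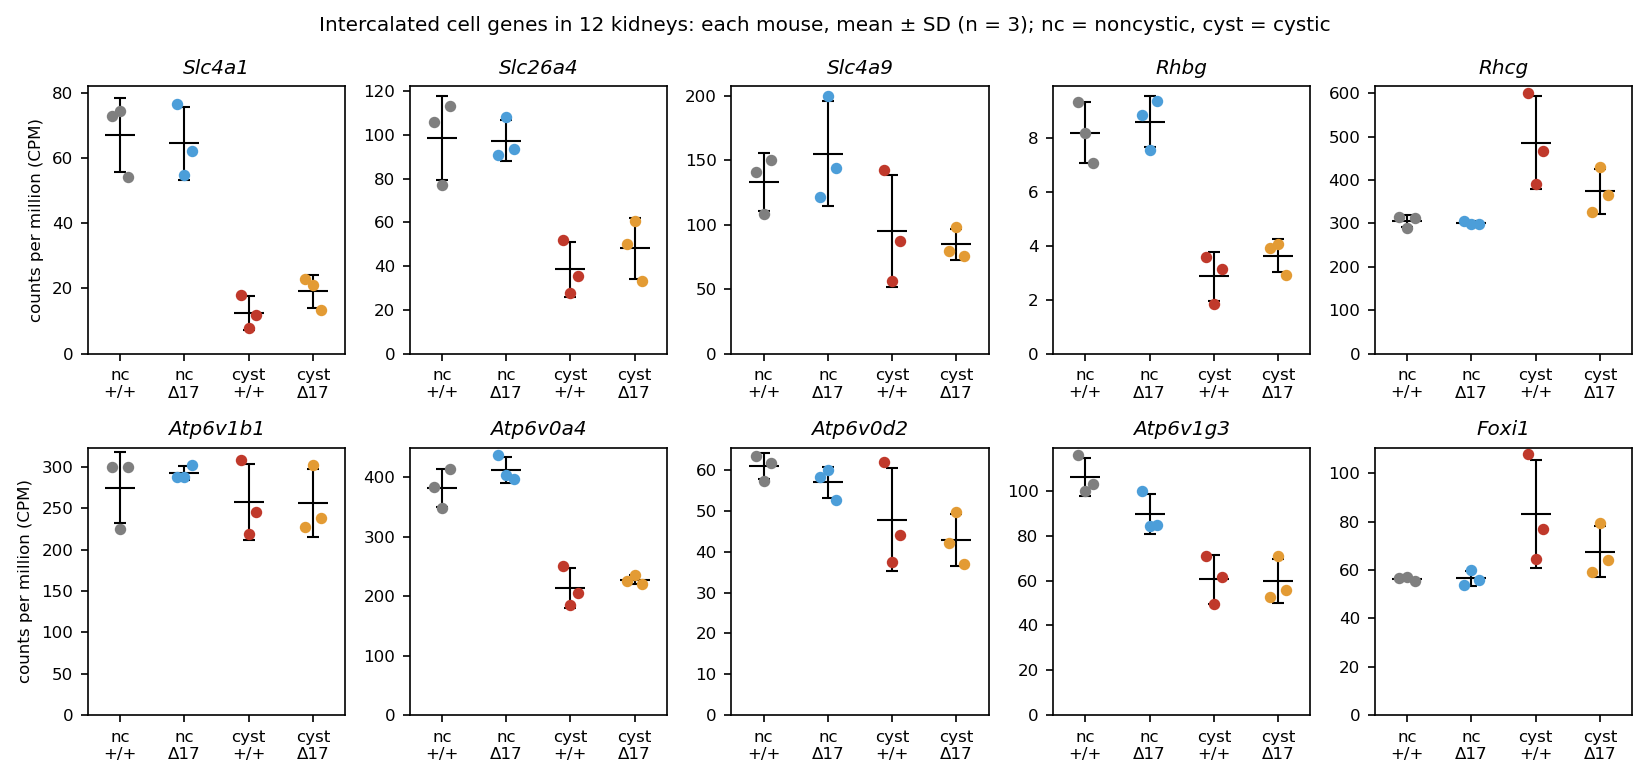
Level of each of the 10 genes in CPM (vertical axes, from 0) in every mouse of the 4 groups (points), with mean ± SD of 3 mice (black). *Slc4a1*, *Slc26a4*, *Rhbg*, *Atp6v0a4* and *Atp6v1g3* were lower in every cystic than in every noncystic kidney, *Rhcg* was higher in every cystic kidney, and *Atp6v1b1* overlapped between all groups.

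*Slc4a1* (ENSMUSG00000006574, chr11:102348824-102366203, reverse strand, GRCm38) encodes AE1, also known as band 3 of the red cell membrane. Its level was 73.0, 74.5 and 54.1 CPM in noncystic mice 19, 20 and 21 and 18.1, 7.69 and 11.7 CPM in cystic mice 25, 26 and 27. All cystic values were below the lowest noncystic value. The means were 67.2 ± 11.4 and 12.5 ± 5.26 CPM (SD, n = 3). The log2 fold change was -2.41 ± 0.25 (SE; edgeR adjusted p = 1.43e-06), and -2.79 without mouse 25.

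Because red cells also make AE1, the markers of red cells were read beside it. Their 9 listed genes summed to 593 to 971 CPM in noncystic and 252 to 355 CPM in cystic kidneys with *Pkd2* +/+, nearly all of it haemoglobin mRNA, and 6 of 9 fell with none rising. Single markers differed. *Alas2* went from 23.3 ± 7.99 CPM in noncystic to 7.03 ± 0.624 CPM in cystic *Pkd2* +/+ kidneys. *Epb42* (protein 4.2), which accompanies band 3 in the red cell membrane, was at 0.815 ± 0.444 and 1.08 ± 0.00378 CPM. *Epb42* was at no more than 1.53 CPM in all 12 mice. Both were named after their values were seen. The share of *Slc4a1* reads that came from red cells was not tested, and counts per gene do not separate its kidney and red cell transcripts.

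*Slc26a4* (ENSMUSG00000020651, chr12:31519827-31559969, reverse strand) encodes pendrin, the defining exchanger of the type B cell. It measured 106, 76.9 and 113 CPM in noncystic mice 19, 20 and 21 and 52.1, 27.7 and 35.6 CPM in cystic mice 25, 26 and 27. No cystic kidney reached the lowest noncystic value. The log2 fold change was -1.36 ± 0.21 (SE; edgeR adjusted p = 0.000106), and -1.64 without mouse 25.

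*Slc4a9* (ENSMUSG00000024485, chr18:36528147-36556273, forward strand) encodes AE4, the basolateral partner of pendrin. The noncystic values were 141, 108 and 150 CPM, and the cystic values were 142, 55.9 and 87.6 CPM in mice 25, 26 and 27. Mouse 25 alone lay among the noncystic kidneys. The log2 fold change of -0.48 ± 0.25 (SE) did not pass the test (edgeR adjusted p = 0.164), and without mouse 25 it was -0.89 and did pass (adjusted p = 0.00241). Leaving out each mouse in turn gave -0.89 to -0.21, with edgeR adjusted p up to 0.523.

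*Rhbg* (ENSMUSG00000104445, chr3:88242874-88254709, reverse strand) is the basolateral ammonia transporter. It was the least abundant of the 10 genes, at 9.35, 8.21 and 7.07 CPM in noncystic and 3.60, 1.86 and 3.15 CPM in cystic kidneys with *Pkd2* +/+. The groups did not overlap, and the log2 fold change was -1.50 ± 0.22 (SE; edgeR adjusted p = 6.05e-05), or -1.71 without mouse 25. *Rhbg* shares 1190 exon bases (61.4%) with the predicted gene *Gm38392* on the same strand, and reads there may have been left uncounted. *Gm38392* itself held 0 to 4 reads per mouse, so the level of *Rhbg* is uncertain.

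*Rhcg* (ENSMUSG00000030549, chr7:79593363-79617657, reverse strand) carries ammonia at the apical and basolateral membranes and is known from principal as well as intercalated cells. It went the other way from *Rhbg*, from 315, 289 and 313 CPM in noncystic mice 19, 20 and 21 to 601, 390 and 466 CPM in cystic mice 25, 26 and 27. Every cystic kidney was above every noncystic one. The log2 fold change was 0.67 ± 0.13 (SE; edgeR adjusted p = 0.000630), and 0.49 without mouse 25 (adjusted p = 0.00210).

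The 4 V-ATPase subunits on the list are the forms enriched in intercalated cells, and they did not move together. *Atp6v0a4* (ENSMUSG00000038600, chr6:38048483-38124586, reverse strand), the a4 subunit of the membrane sector, was at 384, 348 and 413 CPM in noncystic and 250, 185 and 205 CPM in cystic kidneys with *Pkd2* +/+. *Atp6v1g3* (ENSMUSG00000026394, chr1:138273738-138289462, forward strand), the G3 subunit of the stalk, was at 116, 99.8 and 103 CPM and at 70.9, 49.3 and 61.5 CPM. Neither overlapped between the groups, with log2 fold changes of -0.84 ± 0.10 (SE; edgeR adjusted p = 7.74e-06) for *Atp6v0a4* and -0.81 ± 0.13 (adjusted p = 0.000111) for *Atp6v1g3*. *Atp6v0a4* is known from the proximal tubule too, and the 6 proximal tubule markers, which summed to 6034 to 7723 CPM in noncystic and 2158 to 3352 CPM in cystic kidneys, all fell. Their part in the fall of *Atp6v0a4* was not tested. *Atp6v0a4* shares 321 exon bases (6.45%) with *Tmem213* and *D630045J12Rik*.

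*Atp6v1b1* (ENSMUSG00000006269, chr6:83742990-83758855, forward strand), the B1 subunit of the catalytic sector, was at 300, 225 and 300 CPM in noncystic and 308, 219 and 246 CPM in cystic kidneys with *Pkd2* +/+. The values interleaved, and the log2 fold change of -0.09 ± 0.14 (SE) did not pass (edgeR adjusted p = 0.666). On library totals it was 0.06, so that its sign depends on the scaling. *Atp6v0d2* (ENSMUSG00000028238, chr4:19876841-19922605, reverse strand), the d2 subunit, was at 63.6, 57.4 and 61.8 CPM and at 61.9, 37.6 and 44.2 CPM, with mouse 25 among the noncystic values. Its log2 fold change of -0.34 ± 0.14 (SE) did not pass (adjusted p = 0.0832) and was -0.57 without mouse 25 (adjusted p = 0.000955). Leaving out each mouse in turn gave -0.57 to -0.20, with edgeR adjusted p up to 0.324. With all mice it passed in DESeq2, at -0.37 (DESeq2 adjusted p = 0.0373).

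Osteoclasts and macrophages also make *Atp6v0d2*. The 5 osteoclast markers summed to 34.6 to 45.6 CPM in noncystic and 34.7 to 43.2 CPM in cystic kidneys with *Pkd2* +/+, and none of them passed the test. The 8 macrophage markers all rose, from a sum of 173 to 176 CPM to 430 to 573 CPM. Their part in the level of *Atp6v0d2* was not tested.

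*Foxi1* (ENSMUSG00000047861, chr11:34204338-34208089, reverse strand) was nearly constant in noncystic kidneys, at 56.9, 57.0 and 55.6 CPM, and higher in the cystic ones, at 108, 64.7 and 77.1 CPM in mice 25, 26 and 27. The groups did not overlap, although mouse 26 was close to the noncystic range. The log2 fold change was 0.56 ± 0.14 (SE; edgeR adjusted p = 0.00600). Without mouse 25 it was 0.33 and still passed (adjusted p = 0.0334). Between the group means, *Foxi1* moved up and the exchangers *Slc4a1* and *Slc26a4* moved down. Within the cystic *Pkd2* +/+ group these genes ran in the same order, each highest in mouse 25 and lowest in mouse 26.

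With the *Pkd2* motif deleted, 6 of 10 genes passed the test between cystic and noncystic kidneys, all 6 of them lower: *Slc4a9* and the 5 that fell with *Pkd2* +/+. Over all genes tested 23% passed, 10.2% lower. *Slc4a1* fell 3.38-fold, *Rhbg* 2.36-fold, *Slc26a4* 2.02-fold, *Slc4a9* 1.83-fold, *Atp6v0a4* 1.81-fold and *Atp6v1g3* 1.50-fold, and the median log2 fold change of the 10 genes was -0.72, against 0.00 for all genes. The 2 comparisons between cystic and noncystic kidneys share no mice.

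Read mouse by mouse in the noncystic mice 22, 23 and 24 and the cystic mice 28, 29 and 30, *Slc4a1* went from 76.7, 54.7 and 62.1 CPM to 22.9, 21 and 13.3 CPM. *Slc26a4* went from 90.7, 108 and 93.6 CPM to 50.3, 60.8 and 33.3 CPM. *Slc4a9* went from 121, 200 and 144 CPM to 79.7, 98.3 and 75.8 CPM. None of these 3 exchangers overlapped between the groups. Their log2 fold changes were -1.76 ± 0.24, -1.02 ± 0.21 and -0.88 ± 0.25 (SE), with edgeR adjusted p = 5.02e-05, 0.00195 and 0.0161. *Slc4a9* missed the threshold when mouse 23, 28 or 30 was left out (adjusted p = 0.0851, 0.0556 and 0.0642), and with limma-trend on library totals (-0.70; adjusted p = 0.0530). The red cell markers fell beside *Slc4a1* here as well, from a sum of 421 to 1066 CPM to 201 to 289 CPM, with 5 of 9 passing the test.

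Among the ammonia carriers, *Rhbg* was at 8.88, 7.58 and 9.41 CPM in noncystic and 3.94, 4.06 and 2.93 CPM in cystic kidneys with *Pkd2* Δ17/Δ17, without overlap (log2 fold change -1.24 ± 0.22, SE; edgeR adjusted p = 0.000531). *Rhcg* was at 305, 299 and 299 CPM and at 327, 430 and 365 CPM. Every cystic value of *Rhcg* was again the higher one, yet its log2 fold change of 0.31 ± 0.13 (SE) did not pass (adjusted p = 0.0930). *Rhcg* did pass on library totals, at 0.47 (adjusted p = 0.0113), and without mouse 28, at 0.40 (adjusted p = 0.0493). Leaving out each mouse in turn gave 0.20 to 0.40, with edgeR adjusted p up to 0.358.

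Of the proton pump subunits, *Atp6v0a4* was at 437, 403 and 397 CPM in noncystic and at 226, 236 and 221 CPM in cystic kidneys with *Pkd2* Δ17/Δ17. *Atp6v1g3* was at 100, 84.1 and 84.8 CPM and at 52.7, 71.0 and 55.7 CPM. Both were lower in every cystic kidney, with log2 fold changes of -0.86 ± 0.10 and -0.58 ± 0.13 (SE; edgeR adjusted p = 1.44e-05 and 0.00287). *Atp6v0d2*, at 58.3, 60.0 and 52.8 CPM and at 42.1, 49.7 and 36.9 CPM, did not overlap either, and its log2 fold change of -0.41 ± 0.14 (SE) missed the threshold narrowly (adjusted p = 0.0504). It passed without mouse 29, at -0.53 (adjusted p = 0.0261). Leaving out each mouse in turn gave -0.53 to -0.31, with edgeR adjusted p up to 0.202. With mouse 29 kept, it passed in DESeq2, at -0.44 (DESeq2 adjusted p = 0.0167). In edgeR it also passed with DESeq2's size factors (adjusted p = 0.0346) and with only the compared groups fitted (adjusted p = 0.0180). *Atp6v1b1* was at 288, 288 and 302 CPM and at 227, 303 and 238 CPM and again overlapped (log2 fold change -0.19 ± 0.14, SE; adjusted p = 0.360).

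*Foxi1* was at 53.8, 60.1 and 55.8 CPM in noncystic and 59.4, 79.3 and 64.3 CPM in cystic kidneys with *Pkd2* Δ17/Δ17. The groups overlapped at their edges, and the log2 fold change of 0.26 ± 0.14 (SE) did not pass (edgeR adjusted p = 0.232), although on library totals it was 0.41 and did (adjusted p = 0.0460). For *Foxi1*, *Rhcg* and *Slc4a9*, passing in 1 of the 2 *Pkd2* genotypes is not a difference between them: the interaction of cystic state and deletion was -0.30 ± 0.20, -0.35 ± 0.18 and -0.40 ± 0.35 (log2, SE), with edgeR adjusted p = 0.750, 0.633 and 0.821. In total 8 of 10 genes did not overlap between these groups, against 37.9% of all genes.

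**Figure D2:**
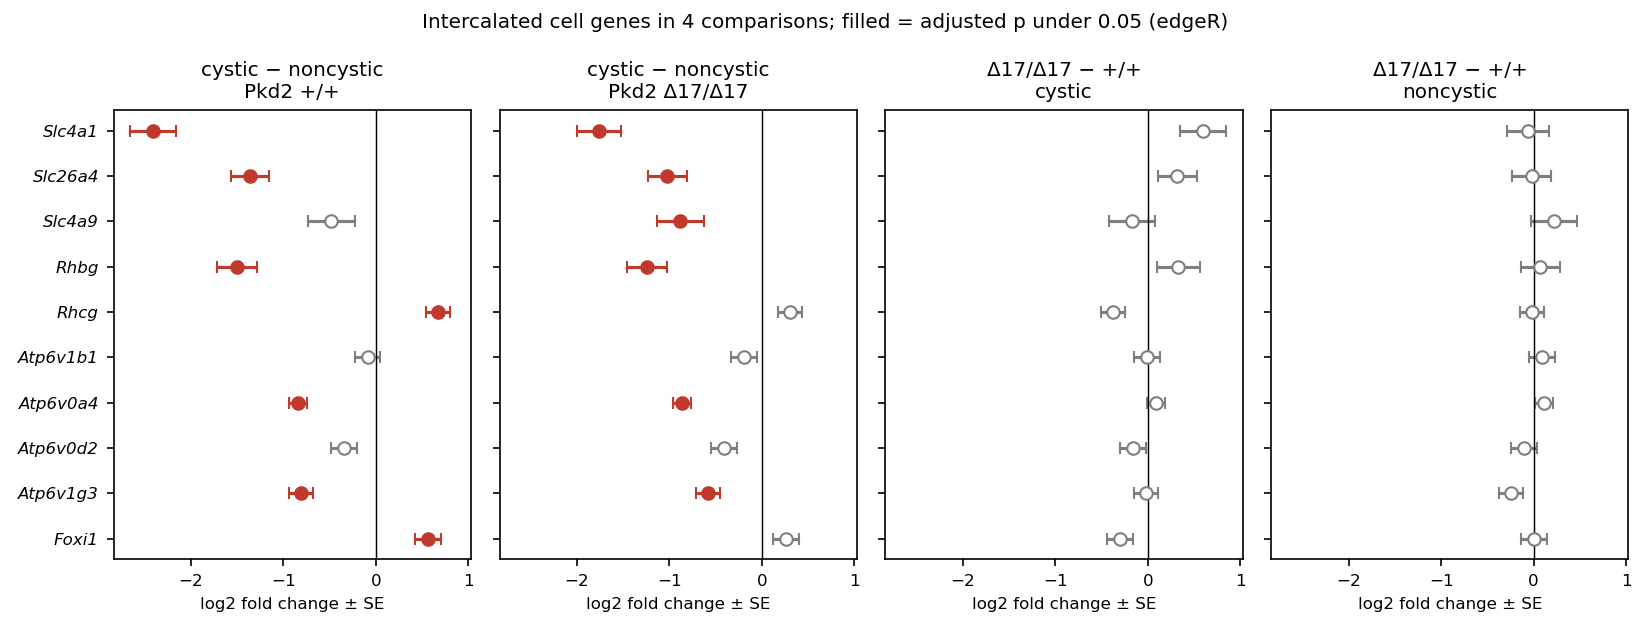
Log2 fold change (horizontal axes) ± SE of each of the 10 genes in 4 comparisons of 3 against 3 mice; filled red points passed an adjusted p of 0.05 (edgeR) and open points did not. Cystic against noncystic kidneys had 7 and 6 filled points with *Pkd2* +/+ and Δ17/Δ17, and the motif deletion had 0 in cystic and 0 in noncystic kidneys.

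The motif deletion in cystic kidneys changed none of the 10 genes past the threshold, where 2.23% of all genes passed. DESeq2 and limma-trend also called 0 of 10. At an unadjusted p under 0.05 edgeR counted 2 of 10, *Slc4a1* and *Rhcg*, against 14.3% of all genes, and all 10 genes overlapped between the groups where 19% of all genes did not. The median log2 fold change was -0.02 for the 10 genes and 0.00 for all genes.

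The values for the deletion lay nearest to a change in *Slc4a1* and *Rhcg*. *Slc4a1* averaged 12.5 ± 5.26 CPM in cystic *Pkd2* +/+ and 19.1 ± 5.08 CPM in cystic *Pkd2* Δ17/Δ17 kidneys (SD, n = 3). Their log2 fold change was 0.60 ± 0.25 (SE; edgeR adjusted p = 0.270), and mouse 25 at 18.1 CPM lay inside the range of the Δ17/Δ17 mice. Without mouse 25 the value was 0.98 and passed (adjusted p = 0.0215). Leaving out each mouse in turn gave 0.35 to 0.98, with edgeR adjusted p up to 0.619. The red cell markers, nearly all of it haemoglobin mRNA, summed to 252 to 355 CPM with *Pkd2* +/+ and 201 to 289 CPM with *Pkd2* Δ17/Δ17. Their part in the level of *Slc4a1* was not tested. *Rhcg* averaged 486 ± 106 and 374 ± 52.1 CPM, with a log2 fold change of -0.38 ± 0.13 (SE; adjusted p = 0.155), and without mouse 26 it was -0.51 and passed (adjusted p = 0.0366). Without mouse 25 the value for *Rhcg* was -0.19 (adjusted p = 0.424).

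For the other 8 genes the log2 fold change of the deletion in cystic kidneys ran from -0.30 ± 0.14 (SE) for *Foxi1* to 0.33 ± 0.23 for *Rhbg*, with 0.32 ± 0.21 for *Slc26a4*. Pendrin averaged 38.5 ± 12.4 CPM in cystic *Pkd2* +/+ and 48.1 ± 13.9 CPM in cystic *Pkd2* Δ17/Δ17 kidneys, and *Foxi1* averaged 83.1 ± 22.1 and 67.6 ± 10.4 CPM. The 4 pump subunits lay between -0.16 ± 0.14 for *Atp6v0d2* and 0.09 ± 0.10 for *Atp6v0a4*, and *Slc4a9* was at -0.17 ± 0.25. Without mouse 25 the values were -0.07 for *Foxi1*, 0.54 for *Rhbg* and 0.60 for *Slc26a4*, that of *Slc4a9* turned to 0.24 and that of *Atp6v0d2* to 0.07, and none of the 8 passed. These values and those for cystic against noncystic *Pkd2* +/+ kidneys share mice 25 to 27, so the opposite signs of *Slc4a1*, *Slc26a4*, *Rhbg*, *Rhcg* and *Foxi1* in the 2 comparisons are not independent.

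In noncystic kidneys the deletion changed none of the 10 genes either, by edgeR, DESeq2 or limma-trend, and 0 of 10 had an unadjusted p under 0.05, where 6.31% of all genes did. Of all genes tested 0.00406% passed the threshold, which is 1 gene. The log2 fold changes of the 10 genes ran from -0.24 ± 0.13 (SE) for *Atp6v1g3* to 0.22 ± 0.25 for *Slc4a9*, and all 10 overlapped between the groups, where 10.8% of all genes did not. The interaction called 0 of 10 genes by edgeR, DESeq2 and limma-trend, 0 at an unadjusted p under 0.05 (8.33% of all genes), and 0.0122% of all genes passed it. Its value nearest the threshold was that of *Rhcg*, with -0.35 ± 0.18.

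Per length of transcript, as CPM per kilobase of exon (RPKM), the 10 genes spanned a wide range of levels. In noncystic *Pkd2* +/+ kidneys the order of mean levels was *Rhcg* at 137 RPKM, *Atp6v0a4* at 76.7, *Atp6v1b1* at 62.8, *Atp6v1g3* at 56.2, *Slc26a4* at 31.8, *Foxi1* at 24, *Atp6v0d2* at 22.4, *Slc4a9* at 20.8, *Slc4a1* at 13.7 and *Rhbg* at 4.24 RPKM. The neighbours *Atp6v1b1* and *Atp6v1g3*, and *Atp6v0d2* and *Slc4a9*, overlapped across the 3 mice. In cystic *Pkd2* +/+ kidneys *Rhcg* stayed first at 218 RPKM, *Atp6v1b1* (58.9 RPKM) stood before *Atp6v0a4* (42.9 RPKM) with overlapping values, *Foxi1* (35.3 RPKM) followed them, and *Slc4a1* (2.55 RPKM) and *Rhbg* (1.48 RPKM) stood last and overlapped. The order in noncystic kidneys with *Pkd2* Δ17/Δ17 had the same first 5 genes, and in cystic kidneys with *Pkd2* Δ17/Δ17 the same first 3 as in cystic *Pkd2* +/+ kidneys.

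Ratios between paired genes within a library do not depend on how libraries are scaled, and they were taken per length and read without a test. Pendrin over AE1 sets a type B against a type A gene. It is a ratio of 2 genes and does not measure the balance of the 2 cell types. The type B gene *Oxgr1* and the type A gene *Slc26a7*, given below, fell alike in cystic *Pkd2* +/+ kidneys. Their log2 fold changes were -1.74 and -1.71. The *Slc26a4*/*Slc4a1* ratio averaged 2.40 ± 0.842 (SD, n = 3) in noncystic and 4.99 ± 0.594 in cystic kidneys with *Pkd2* +/+, and 2.45 ± 0.627 and 3.98 ± 0.556 with *Pkd2* Δ17/Δ17. Cystic and noncystic values did not overlap in either genotype, while the 2 cystic groups did overlap. *Slc4a1* fell further than *Slc26a4* in these kidneys, with the red cell values given above.

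The V-ATPase subunits were each set against the form that other cells use. *Atp6v0a4*/*Atp6v0a1* averaged 9.66 ± 1.32 (SD, n = 3) in noncystic and 4.36 ± 0.636 in cystic kidneys with *Pkd2* +/+, and 9.94 ± 1.51 and 5.01 ± 0.383 with *Pkd2* Δ17/Δ17, without overlap between cystic and noncystic. *Atp6v1b1*/*Atp6v1b2* went up, from 1.05 ± 0.198 to 1.51 ± 0.237 with *Pkd2* +/+ without overlap, and from 1.08 ± 0.0583 to 1.40 ± 0.255 with *Pkd2* Δ17/Δ17 with overlap. In *Pkd2* +/+ kidneys the a4 form was lower and the B1 form higher relative to the widely used form of the same subunit. The ratios *Atp6v0d2*/*Atp6v0d1* (0.356 ± 0.0310 and 0.280 ± 0.0713) and *Atp6v1g3*/*Atp6v1g1* (0.226 ± 0.0228 and 0.199 ± 0.0347) overlapped between noncystic and cystic kidneys.

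**Figure D3:**
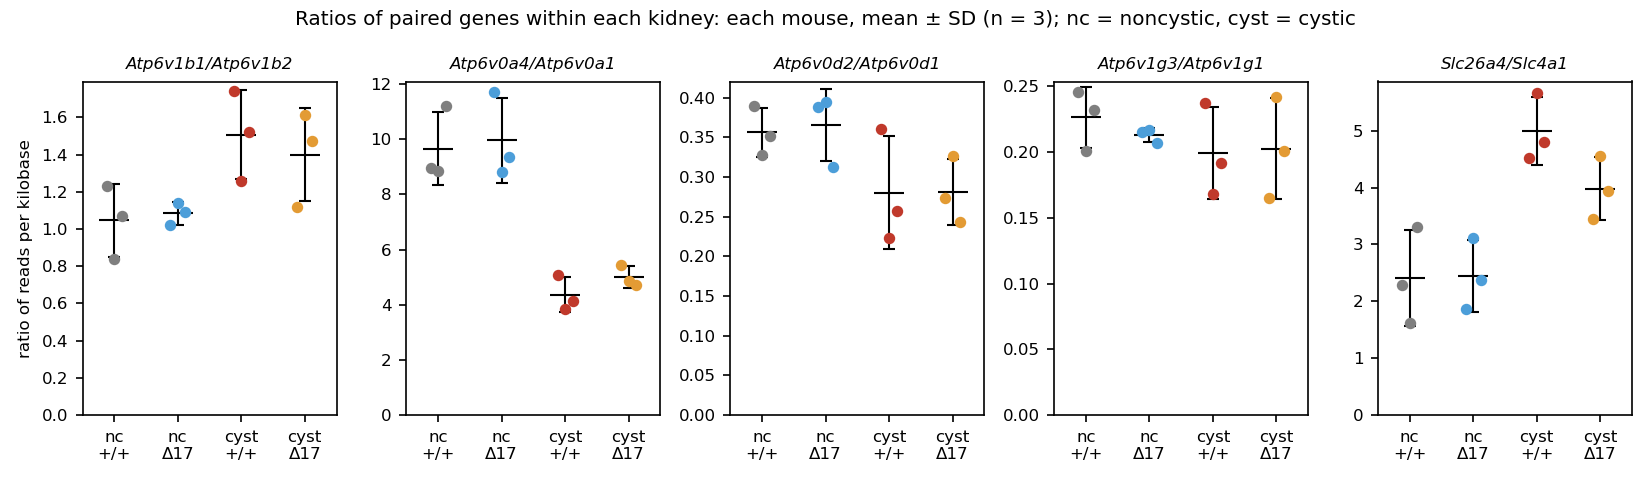
Ratio of reads per kilobase (vertical axes, from 0) between paired genes in every mouse (points) of the 4 groups, with mean ± SD of 3 mice (black). *Atp6v0a4*/*Atp6v0a1* was lower and *Slc26a4*/*Slc4a1* higher in every cystic than in every noncystic kidney of the same *Pkd2* genotype, and the d2/d1 and G3/G1 ratios overlapped.

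The shared forms also differed among themselves. *Atp6v1b2* fell from 320 ± 22.7 to 207 ± 9.96 CPM between noncystic and cystic *Pkd2* +/+ kidneys (log2 fold change -0.63; edgeR adjusted p = 4.92e-05), *Atp6v0d1* had a log2 fold change of 0.00 (adjusted p = 0.973), and *Atp6v0a1* rose from 52.4 ± 3.92 to 64.5 ± 1.06 CPM (log2 fold change 0.30; adjusted p = 0.0153), a call lost without mouse 20 (adjusted p = 0.0569) or 21 (adjusted p = 0.0891). Of 21 further V-ATPase subunits and accessory proteins listed, 20 were tested, and in cystic *Pkd2* +/+ kidneys 15 fell, 1 rose and 4 did not pass, with a median log2 fold change of -0.39. The smallest p-values were those of stalk and rotor subunits of the cytosolic sector, *Atp6v1e1* (-0.67; adjusted p = 5.77e-06), *Atp6v1d* (-0.61; adjusted p = 1.72e-05) and *Atp6v1g1* (-0.63; adjusted p = 2.79e-05). With *Pkd2* Δ17/Δ17, 14 of 20 fell and 0 rose, and the deletion itself changed 0 of 20 in cystic kidneys.

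Other genes known from intercalated cells also moved in both directions. Of 14, 6 rose, 5 fell and 3 did not pass between cystic and noncystic *Pkd2* +/+ kidneys, with a median log2 fold change of -0.07. The oxoglutarate receptor *Oxgr1*, a type B gene, fell from 86.6 ± 10.7 to 25.9 ± 9.84 CPM (log2 fold change -1.74; edgeR adjusted p = 1.35e-05). The type A anion exchanger *Slc26a7* fell from 4.72 ± 0.650 to 1.44 ± 0.178 CPM (-1.71; adjusted p = 0.000142). The transcription factor *Dmrt2* rose from 10.9 ± 1.82 to 26.1 ± 6.61 CPM (1.26; adjusted p = 2.77e-05).

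The rest of that list is given whole and was named after its values were seen. *Insrr* (log2 fold change -1.15), *Hepacam2* (-0.66) and the carbonic anhydrase *Car12* (-0.50) also fell. *P2ry14* (0.67), the sodium-coupled exchanger *Slc4a8* (0.65), *Kit* (0.52), the transcription factor *Tfcp2l1* (0.44) and the carbonic anhydrase *Car2* (0.26) also rose. *Aqp6* (-0.29), *Adgrf5* (-0.20) and *Car15* (0.06) did not pass. With *Pkd2* Δ17/Δ17 the counts were 3 higher, 6 lower and 5 not passing, and the deletion changed 0 of 14 in cystic kidneys.

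Of the 10 principal cell markers, 6 rose, 0 fell and 4 did not pass in cystic *Pkd2* +/+ kidneys, with a median log2 fold change of 1.04 and sums of 1513 to 1643 CPM in noncystic and 2526 to 4208 CPM in cystic kidneys. *Hsd11b2*, which shields the mineralocorticoid receptor from glucocorticoids, rose from 276 ± 56.4 to 928 ± 135 CPM (log2 fold change 1.75; edgeR adjusted p = 1.50e-07), and the sodium channel subunits *Scnn1b* and *Scnn1g* rose by 1.26 (adjusted p = 1.62e-06) and 1.30 (adjusted p = 2.64e-06). *Aqp2*, the vasopressin-regulated water channel, had 0.40 ± 0.36 (SE; adjusted p = 0.461). Also on the list, *Aqp3* averaged 186 ± 11.1 CPM in noncystic and 302 ± 178 CPM in cystic *Pkd2* +/+ kidneys. *Aqp4* averaged 52.6 ± 11.2 and 68.0 ± 22.7 CPM, and *Avpr2*, with few reads, 0.493 ± 0.116 and 0.161 ± 0.0287 CPM. *Aqp2*, *Aqp3*, *Aqp4* and *Avpr2* were added to the named genes after their values were seen. The 6 principal cell markers that rose moved with *Rhcg*, and their part in its rise was not tested. The deletion in cystic kidneys lowered 1 of the 10, *Elf5* (-0.84; adjusted p = 0.0322), which missed the threshold when mouse 26, 27, 28 or 30 was left out (adjusted p = 0.0905, 0.0610, 0.182 and 0.0704) and when only the compared groups were fitted (adjusted p = 0.0553).

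Of 15 further acid-base and ammonia genes, listed mainly for other segments, 10 fell, 2 rose and 3 did not pass in cystic *Pkd2* +/+ kidneys, with a median log2 fold change of -0.89. *Slc9a3*, the proximal sodium-proton exchanger, fell by 1.51 on the log2 scale (edgeR adjusted p = 1.39e-07), *Pck1*, the gluconeogenic enzyme that consumes the carbon left by ammonia production, by 2.37 (adjusted p = 4.78e-07), and the proton-potassium pump *Atp4a*, which is known from intercalated cells too, by 1.96 (adjusted p = 9.39e-07). *Atp12a*, another proton-potassium pump on the list, went the other way, from 19.6 ± 5.37 CPM in noncystic to 62.1 ± 15.9 CPM in cystic *Pkd2* +/+ kidneys. It was named after its values were seen. The deletion in cystic kidneys raised 1 of the 15, *Slc9a3*, from 57.3 ± 11.6 to 98.2 ± 2.81 CPM (log2 fold change 0.78; adjusted p = 0.00381).

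**Figure D4:**
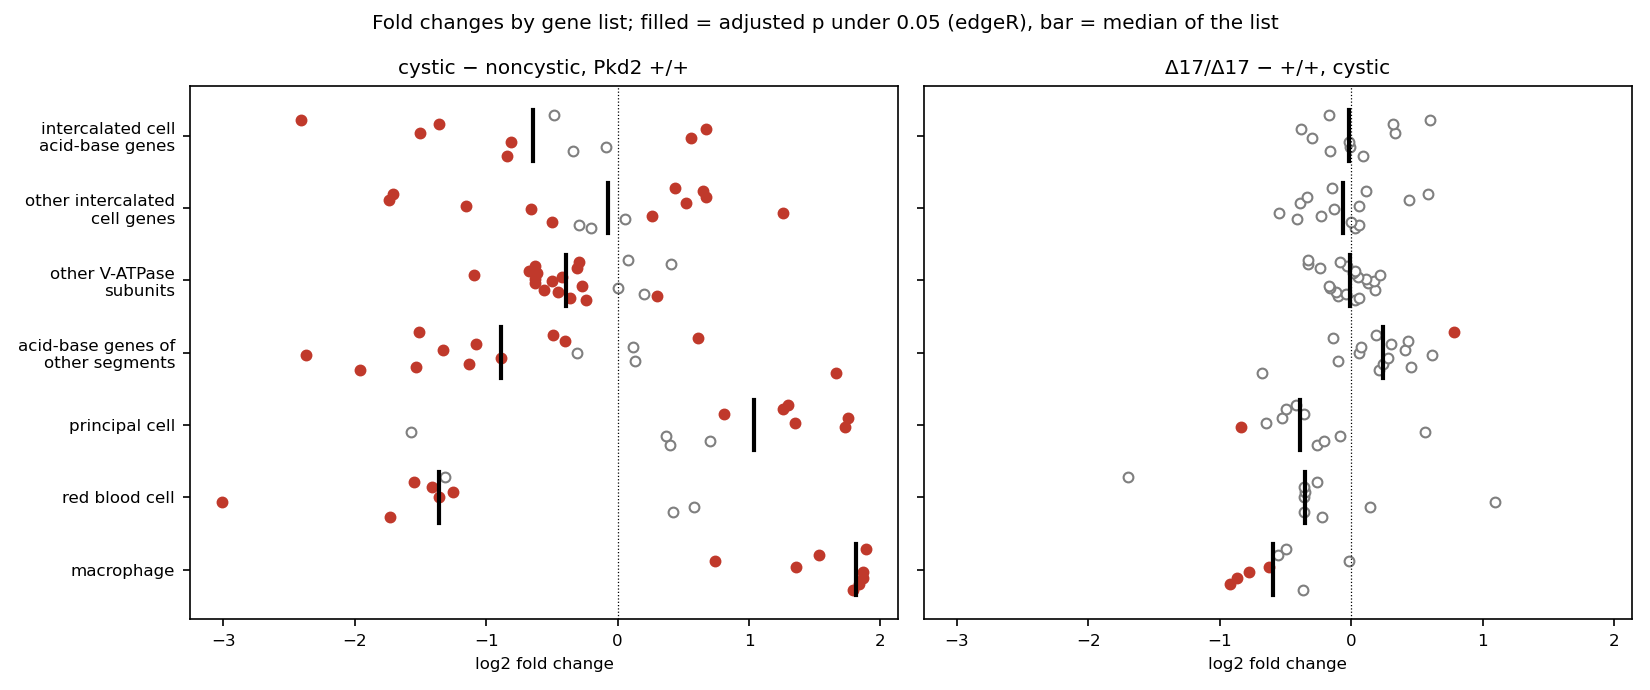
Log2 fold change (horizontal axes) of every tested gene in 7 lists, for cystic against noncystic *Pkd2* +/+ kidneys and for the motif deletion in cystic kidneys; filled red points passed an adjusted p of 0.05 (edgeR), open points did not, and the black bar is the list's median. The 10 genes had a median of -0.64 with points on both sides of 0, the principal cell list 1.04 and the macrophage list 1.82, and for the deletion the 10 genes had no filled point.

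Likeness of pattern was measured as the root mean square difference of log2 levels, each gene centred on its mean, over the 12 mice and 13681 genes. Closest to *Foxi1* were *Sirt6* (0.0845), *Card9* (0.102) and *Tfcp2l1* (0.112), against a median of 0.342 over the genes compared. *Tfcp2l1* is a transcription factor known from intercalated cells. Closest to *Slc26a4* were *Tmem52b* (0.149), *Hlf* (0.157) and *Klf15* (0.158), against a median of 0.721. Closest to *Slc4a1* were *G6pc* (0.228), *Mymx* (0.266) and *Gcgr* (0.281), against a median of 1.17. *G6pc*, glucose-6-phosphatase, and *Gcgr*, the glucagon receptor, are no intercalated cell genes, and these are descriptions over mice that also share their cystic state.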

How the data were processed

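The authors trimmed reads with Trim Galore 0.6.3, aligned them to GRCm38 with STAR 2.5.3a and deposited raw counts per gene, not normalized. The strand setting of the counting is not given in the sources used here. Of the 54532 identifiers, 54409 (99.77%) were found in GENCODE M21 (GRCm38), the source of coordinates and exon lengths. Unnamed genes (343) held 0.0225% of reads.

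The main test was run in edgeR 4.0.16 under R 4.3.3 (quasi-likelihood, TMM factors, 1 mean per group over 12 mice, 8 residual degrees of freedom, Benjamini-Hochberg over the 24642 genes whose mean log2CPM, with a prior count of 2, reached -3). Alternatives were limma-trend on library totals (limma 3.58.1, prior count 3; the study's test), DESeq2 1.42.0, library totals, DESeq2's size factors, no filter, the compared groups alone, *Xist* as a covariate and leaving out each mouse. Chi-square per degree of freedom between mice of a group was 8.88 to 24.3, so no 2 libraries of a group were duplicates. Each mouse is 1 replicate. *Xist*, a transcript of female cells, was at 431 to 811 CPM in mice 19, 22, 23, 25, 26 and 28. In the other mice it was at 5.47 to 7.74 CPM. By *Xist*, both sexes were present in every group, in proportions that differed between groups. The standard error was 0.11 (median over the 13848 genes at a log2CPM of 1 or more).

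The 10 genes, the lists and the tests were chosen with earlier results of these data known. From the lists of V-ATPase, intercalated cell, principal cell and further acid-base genes, up to 3 past the threshold with the lowest adjusted p were named between cystic and noncystic *Pkd2* +/+ kidneys and for the deletion in cystic kidneys, with the paralogues of the 4 pump subunits. For *Foxi1*, *Slc26a4* and *Slc4a1* the 3 closest patterns were named. Some single genes of the lists are not reported here.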

Additional observations from a re-analysis of the deposited data

How the results depend on the processing

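No paired analysis was possible because the groups share no mouse numbers. Of the 10 genes, 7 to 9 passed between cystic and noncystic *Pkd2* +/+ kidneys over all alternatives (9 without mouse 25), and 5 to 9 with *Pkd2* Δ17/Δ17 (8 on library totals). For the deletion in cystic kidneys the count of 0 became 4 (2 higher, 2 lower) with no filter on low counts, and ran from 0 to 1 when mice were left out. The interaction count of 0 became 1, *Slc4a1*, with no filter. Without the filter edgeR's prior degrees of freedom became infinite (8.12 with it), so that each gene's own spread no longer entered its test. In noncystic kidneys the count stayed 0 in every alternative. Of 921 alternative values of named genes, 853 kept sign and side of the threshold, 25 newly passed, 11 no longer passed and 32 changed sign, none of those 32 past the threshold.

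Signs changed for *Atp6v1b1* between cystic and noncystic *Pkd2* +/+ kidneys (0.06 with limma-trend and 0.06 with edgeR on library totals) and for *Slc26a4* with the deletion in noncystic kidneys (0.01 with limma-trend). In the interaction they changed for *Atp6v0d2* (0.01) and *Atp6v0a4* (0.01) with *Xist* as a covariate. Leaving out mice gave -0.24 to 0.01 for *Atp6v1b1* in cystic against noncystic *Pkd2* +/+ kidneys. For the deletion in cystic kidneys it gave -0.15 to 0.14 for *Atp6v1b1*, -0.31 to 0.07 for *Atp6v0d2*, -0.16 to 0.11 for *Atp6v1g3* and -0.44 to 0.24 for *Slc4a9*. For the deletion in noncystic kidneys it gave -0.21 to 0.05 for *Slc4a1*, -0.18 to 0.09 for *Slc26a4*, -0.05 to 0.16 for *Atp6v1b1*, -0.01 to 0.36 for *Slc4a9* and -0.03 to 0.18 for *Rhbg*. For the interaction it gave -0.24 to 0.05 for *Atp6v1b1*, -0.21 to 0.16 for *Atp6v0d2*, -0.11 to 0.11 for *Atp6v0a4* and -0.67 to 0.01 for *Slc4a9*. The cause was not tested.

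Over all genes, the deletion in cystic kidneys called 549, against 1128 with DESeq2, 1639 with no filter, 167 in the compared groups alone, and 118 to 861 without 1 mouse. In noncystic kidneys it called 1, against 3 with DESeq2, 124 with no filter and 2 in the compared groups alone. The interaction called 3, against 9 with limma-trend, 134 with DESeq2, 8 on library totals, 566 with no filter, 15 with *Xist* and 0 to 61 without 1 mouse. With 3 mice per group, the standard error was 0.10 to 0.25 for the 10 genes between groups, and 0.14 to 0.35 in the interaction. Differences well above 1 standard error could still go undetected. For the deletion in cystic kidneys, *Rhcg* at -0.38 ± 0.13 (SE; edgeR adjusted p = 0.155) and *Slc4a1* at 0.60 ± 0.25 (adjusted p = 0.270) did not pass.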
